A study of Mus musculus with 11 samples.

Results

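The genes described here encode secreted ligands of the transforming growth factor beta (TGF-beta), bone morphogenetic protein (BMP) and activin families, with a pair of their secreted antagonists. They were taken by name: the ligand genes Tgfb1, Tgfb2, Tgfb3, Bmp2, Bmp4, Bmp5 and Inhba, and the antagonist genes Grem1 and Fst. All 9 were found by single gene symbol in the platform annotation, among 18193 genes named that way, and 17 of the 45101 probe sets on the array belonged to them. Each gene had at least 1 probe set above the filter on low values, and 13 of the 17 probe sets passed.

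TGF-beta ligands are secreted bound to a latency peptide and, once freed, signal through paired serine/threonine kinase receptors to SMAD2 and SMAD3. BMPs signal through a related receptor set to SMAD1, SMAD5 and SMAD9, and activins, dimers of the inhibin beta subunits, share the SMAD2 and SMAD3 route. Gremlin 1 binds BMPs, above all BMP2 and BMP4, and follistatin binds activins and some BMPs, and both keep the ligand from its receptors. In the gut wall these signals pattern the muscle layers and the mucosa during development and shape fibroblast and smooth muscle identity in the adult.

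Transcript levels were measured on Affymetrix mouse arrays in 2 clonal lines of progenitor cells that give rise to the gut's pacemakers, the interstitial cells of Cajal (ICC), and in the stomach muscle each line came from. The C57BL/6J line, 2xSCS2F10, is a wild-type clone that was cultured at 37 °C in a neural stem cell medium with 5% chick embryo extract (3 arrays). The tsA58 line, 2xSCS70, is a clone from H-2Kb-tsA58 mice (3 arrays), whose transgene encodes a heat-sensitive viral large T antigen under the interferon-inducible H-2Kb promoter. It was cultured at 39.5 °C with no interferon-gamma in the same medium, for which no extract is named. The tissues were gastric tunica muscularis of C57BL/6J mice (2 arrays) and of H-2Kb-tsA58 mice (3 arrays), untreated and of an age not given in the sources used here. Strain and transgene differ together between the tissues. Between the lines temperature and clone differ with them, and the extract in the medium may differ too. The titles call the arrays of a group biological replicates, but the design text gives a number of arrays per sample and no source names separate cultures or animals, so p-values measure the spread between these arrays, which may be technical.

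Smooth muscle markers (Actg2, Myh11, Des, Cnn1 and Myl9) averaged 11.74 to 13.25 log2 units over the tissue arrays. The 5 gastric epithelial markers were almost as high there, at 10.90 to 13.21, although the label names the muscle wall. Exocrine pancreas markers (3 genes) ranged from 4.70 to 11.19 between tissue arrays. Both ICC markers found, Kit and Ano1, averaged 8.36 to 9.15 in the tissues and 4.69 to 5.81 in the lines, where 1 of the 2 genes lay above the array median. In these bulk samples, fewer cells of a type and less RNA per cell cannot be told apart. Processing controls differed with the groups: the bacterial hybridisation controls averaged 9.45, 10.72, 7.87 and 8.50 in the C57BL/6J line, C57BL/6J tissue, tsA58 line and tsA58 tissue. Among the tsA58 line arrays the actin signal at the 3' end over that at the 5' end was, on the log2 scale, 0.51, 0.85 and 0.05 for replicates 1, 2 and 3, against 0.99 to 1.04 in the C57BL/6J line.

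Upstream sequences are shown for Tgfb1, Bmp4 and Grem1, which with Inhba and Fst are the genes whose line-tissue difference differed between the strains below. The RefSeq promoter table for GRCm38.p6 matched 6 of the 9 genes, and Fst, Bmp2 and Tgfb3 were not matched. The Inhba window of that table lies inside the gene's annotated span and is not shown. Each sequence is the 250 bases before the annotated gene start, written 5' to 3' along the gene. Capitals mark matches on either strand to a TATA box (TATAAA), a GC box (GGGCGG), the SMAD-binding CAGA core (CAGAC) or an AP-1 site (TGANTCA).
Tgfb1, chr7:25686752-25687001, + strand: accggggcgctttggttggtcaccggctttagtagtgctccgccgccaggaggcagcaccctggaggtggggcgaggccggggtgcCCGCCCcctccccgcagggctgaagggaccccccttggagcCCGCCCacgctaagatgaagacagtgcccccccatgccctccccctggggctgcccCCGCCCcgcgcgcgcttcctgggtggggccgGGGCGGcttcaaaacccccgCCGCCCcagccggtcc
Bmp4, chr14:46390670-46390919, - strand: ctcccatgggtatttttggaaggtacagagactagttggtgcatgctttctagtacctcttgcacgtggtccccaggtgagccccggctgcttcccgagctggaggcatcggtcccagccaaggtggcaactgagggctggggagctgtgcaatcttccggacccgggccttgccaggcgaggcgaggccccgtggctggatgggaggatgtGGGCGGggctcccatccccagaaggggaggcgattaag
Grem1, chr2:113758649-113758898, - strand: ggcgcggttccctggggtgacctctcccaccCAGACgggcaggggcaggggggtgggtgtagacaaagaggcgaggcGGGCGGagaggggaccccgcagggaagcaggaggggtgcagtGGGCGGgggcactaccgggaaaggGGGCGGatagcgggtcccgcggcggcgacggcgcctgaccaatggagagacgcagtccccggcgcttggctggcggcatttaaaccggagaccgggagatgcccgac
Matches did not overlap in these windows. The Tgfb1 and Grem1 windows were 75.2% and 72.0% G or C, against a median of 52.4% over the 32851 promoters of the table. They held 5 and 3 GC boxes, a motif present in 32.7% of all promoters, and Grem1 also held 1 CAGAC. Bmp4 (63.2% G or C) had 1 GC box. No TATAAA or AP-1 match lay in any of the 3 windows (12.4% and 6.7% of all promoters hold one), and CAGAC occurred in 42.2%. A match is a description of the letters only, and the arrays do not read these regions.

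Levels below are log2 intensities after RMA, the authors' normalisation, given for each array, and differences are log2 differences ± standard error from limma. Calls required at least a 2-fold change and an adjusted p (Benjamini-Hochberg over 26903 probe sets) below 0.05, and a gene with several probe sets is counted by the strongest on average. Array medians lay between 4.66 and 4.84; a level near or below them cannot be told from background, and a difference that ends there understates the change. Of the 9 genes, 3 were higher and 4 lower in the C57BL/6J line than in its tissue, where 34.2% of 13285 genes were called (17.5% higher, 16.6% lower). The tsA58 line also had 3 higher and 4 lower than its tissue (31.7% of all genes called, 12.8% higher and 18.9% lower). Between the lines 2 genes were higher and 2 lower in the tsA58 line (14.2% of all genes called, 8.42% higher and 5.82% lower). Between the tissues 2 were higher and 1 lower in tsA58 tissue (13.2% called, 9.79% higher and 3.37% lower). The line-tissue difference itself differed between the strains for 5 of the 9, 2 higher and 3 lower in tsA58 (20.8% called, 7.54% higher and 13.2% lower). Counted by probe set, 34.1%, 30.5%, 14.2%, 15.9% and 22.3% were called in these comparisons. The comparisons share arrays and 1 estimate of the spread. Centring each array on its hybridisation controls instead moved the median of all probe sets by 1.27, 0.63, 1.58, 2.22 and -0.64 in the 5 comparisons in this order. Between the tissues it turned the sign of Tgfb2, Bmp5, Inhba, Grem1 and Fst and called 7 genes higher and 0 lower.

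**Figure D1:**
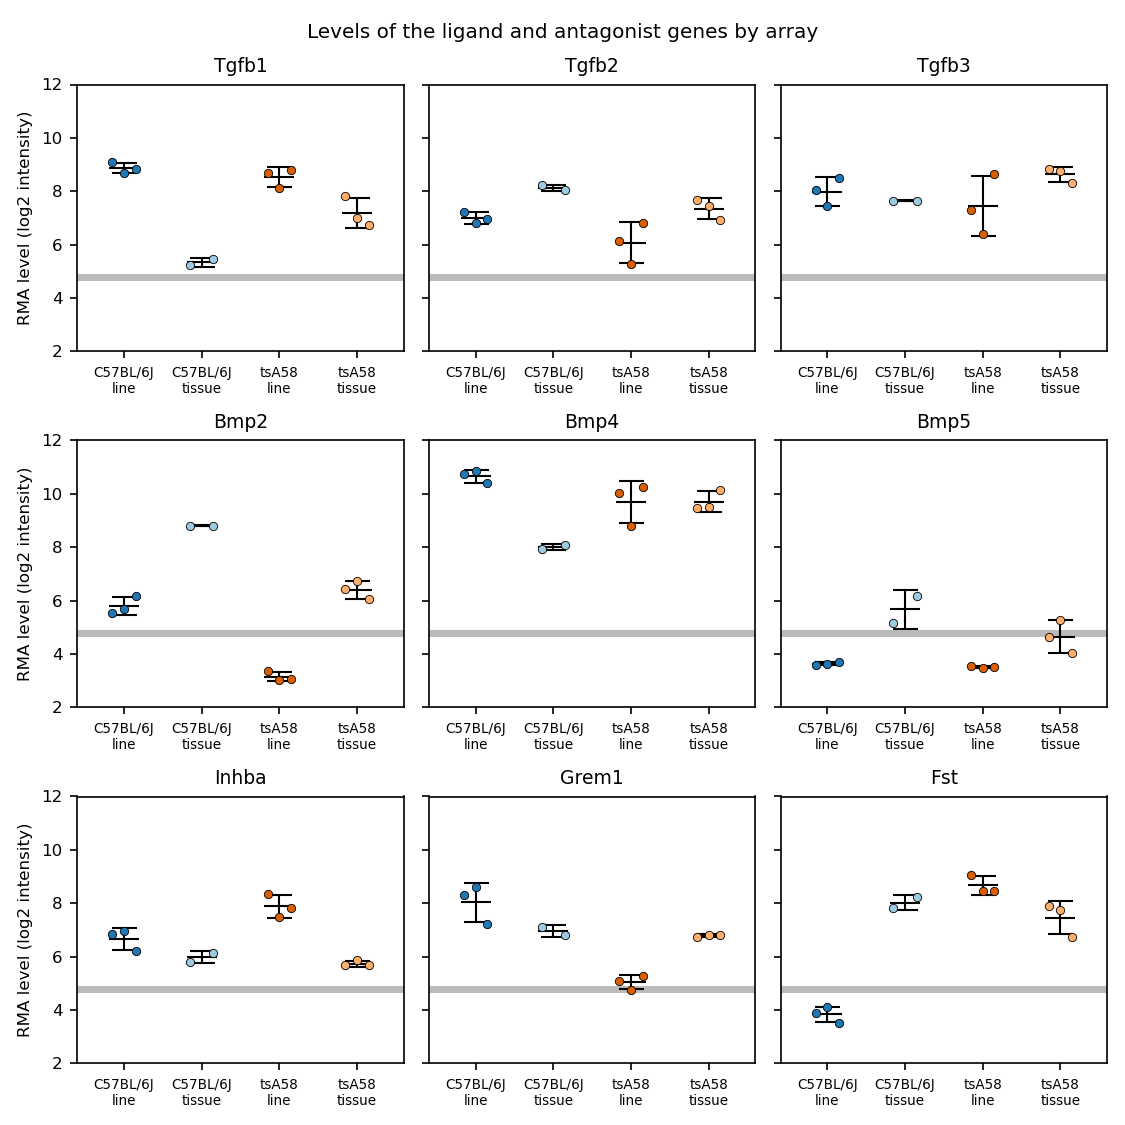
Level of each gene on every array, by group, as log2 intensity after RMA of the probe set with the highest mean. Points are arrays, bars are the mean and SD, and the grey band spans the array medians (4.66 to 4.84). Fst is below the band in the C57BL/6J line and between 8.45 and 9.07 in the tsA58 line, while Grem1 is highest in the C57BL/6J line (7.22 to 8.60) and lowest in the tsA58 line (4.76 to 5.29).

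Follistatin and gremlin 1 moved in opposite directions in the lines. Fst was lower in the C57BL/6J line than in its tissue and higher in the tsA58 line than in tsA58 tissue, and Grem1 did the reverse. Of these differences, only that of Fst in the C57BL/6J line kept its call under every alternative processing run. The Grem1 call in the C57BL/6J line was lost under 6 alternatives, and the calls of both genes in the tsA58 line under 1 each. Between the lines Fst was 28.5-fold higher and Grem1 7.94-fold lower in the tsA58 line. Neither was called between the tissues.

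Fst, which encodes the activin-binding protein follistatin, stood at 3.87, 4.10 and 3.52 in the C57BL/6J line and at 9.07, 8.47 and 8.45 in the tsA58 line. The tissues lay between, at 7.81 and 8.22 in C57BL/6J and at 7.89, 7.73 and 6.75 in tsA58. Every array of the C57BL/6J line was thus below the array median and below every array of the other groups, while the tissues overlapped each other. The C57BL/6J line against its tissue gave -4.19 ± 0.35 (adjusted p = 7.43e-06), and the tsA58 line against its tissue gave 1.21 ± 0.31 (adjusted p = 0.0094). The latter fell below 2-fold, at 0.85, without tsA58 tissue replicate 3. Between the lines the difference was 4.83 ± 0.31 (adjusted p = 6.93e-06), and the difference of the line-tissue differences was 5.39 ± 0.47 (adjusted p = 0.00011). Between the tissues it was -0.56 ± 0.35 (adjusted p = 0.28). The other Fst probe set, 1421365_at, was called in the same 4 comparisons with smaller sizes: -2.21 and 1.77 against the tissues, 3.22 between the lines and 3.99 for the difference of differences.

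Grem1, the gremlin gene, was at 8.29, 8.60 and 7.22 in the C57BL/6J line and at 7.13 and 6.81 in C57BL/6J tissue. It was at 5.09, 4.76 and 5.29 in the tsA58 line and at 6.74, 6.82 and 6.82 in tsA58 tissue. Replicate 3 of the C57BL/6J line lay close to the tissues, which overlapped each other, and all tsA58 line arrays lay below the rest. The tsA58 line differed from its tissue by -1.74 ± 0.31 (adjusted p = 0.0011; -1.12 and 0.20 with hybridisation control centring) and from the C57BL/6J line by -2.99 ± 0.31 (adjusted p = 0.00011). The difference of differences was -2.81 ± 0.47 (adjusted p = 0.0023). The C57BL/6J line was higher than its tissue by 1.07 ± 0.35 (adjusted p = 0.028), a call that was not stable. It ended under quantile normalisation (0.93) and cyclic loess (0.76), and without C57BL/6J line replicate 1 (0.94) or 2 (0.78) or tissue replicate 1 (1.22, adjusted p = 0.07) or 2 (0.91). The tissues differed by -0.18 ± 0.35 (adjusted p = 0.76).

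Inhba encodes the beta A subunit, whose homodimer is activin A, a ligand that follistatin binds. It was at 8.34, 7.49 and 7.83 in the tsA58 line and at 6.86, 6.95 and 6.19 in the C57BL/6J line. Tissue levels were 5.81 and 6.14 in C57BL/6J and 5.68, 5.87 and 5.67 in tsA58. The lines did not overlap each other or the tissues, and the tissues overlapped. The tsA58 line was higher than its tissue by 2.15 ± 0.26 (adjusted p = 8.37e-05) and higher than the C57BL/6J line by 1.22 ± 0.26 (adjusted p = 0.0077). The call between the lines fell just under 2-fold without C57BL/6J line replicate 3 (0.98) or tsA58 line replicate 1 (0.99), and with the 3' to 5' actin ratio as a covariate (0.98, adjusted p = 0.086). For the C57BL/6J line against its tissue the difference was 0.69 ± 0.29 (adjusted p = 0.074). The difference of differences was 1.46 ± 0.39 (adjusted p = 0.021), and its adjusted p rose to 0.051 without C57BL/6J tissue replicate 1 (1.62) and to 0.096 without replicate 2 (1.30), and with hybridisation control centring the value was 0.82 (adjusted p = 0.70). The other Inhba probe set, 1458291_at, did not pass the filter, with levels of 3.59 to 4.51. The transcripts of the activin A subunit and of its antagonist Fst were thus both higher in the tsA58 line than in the C57BL/6J line.

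Bmp4 and Tgfb1 were the ligands most raised in the C57BL/6J line against its tissue. Both were also higher in tsA58 tissue than in C57BL/6J tissue. The difference of differences was called for both, lower in tsA58.

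Bmp4, a BMP made by gut mesenchyme and bound by gremlin 1, was at 10.73, 10.87 and 10.39 in the C57BL/6J line and at 7.92 and 8.09 in C57BL/6J tissue. It was at 10.02, 8.81 and 10.25 in the tsA58 line and at 9.47, 9.49 and 10.15 in tsA58 tissue. C57BL/6J tissue lay below every other array, and the tsA58 line and tissue overlapped. The C57BL/6J line exceeded its tissue by 2.66 ± 0.39 (6.31-fold, adjusted p = 0.00029), while the tsA58 line differed from its tissue by -0.01 ± 0.35 (adjusted p = 0.98). The difference of differences was -2.67 ± 0.52 (adjusted p = 0.0051). Between the tissues it was 1.70 ± 0.39 (adjusted p = 0.011), but leaving out C57BL/6J tissue replicate 1 (1.62, adjusted p = 0.088) or 2 (1.78, for which it was 0.061) ended the call, as did the actin ratio as a covariate (0.83). The lines differed by -0.97 ± 0.35 (adjusted p = 0.069), and this was called without tsA58 line replicate 3 (-1.25, adjusted p = 0.020) and with the actin covariate (-1.93, adjusted p = 0.0042).

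Tgfb1, the TGF-beta isoform best known from wound repair and fibrosis, was at 9.08, 8.70 and 8.84 in the C57BL/6J line and at 8.67, 8.12 and 8.81 in the tsA58 line. C57BL/6J tissue was at 5.22 and 5.46 and tsA58 tissue at 7.81, 7.01 and 6.74. Both lines lay above both tissues, the lines overlapped, and C57BL/6J tissue was lowest, less than 1 unit above the array median. The C57BL/6J line was 11.5-fold higher than its tissue (3.53 ± 0.32, adjusted p = 1.22e-05) and the tsA58 line 2.55-fold higher (1.35 ± 0.28, adjusted p = 0.0030). Between the tissues tsA58 was higher by 1.84 ± 0.32 (adjusted p = 0.0028), and the difference of differences was -2.18 ± 0.43 (adjusted p = 0.0051), or -2.81 with an adjusted p of 0.069 under hybridisation control centring. The lines differed by -0.34 ± 0.28 (adjusted p = 0.44). The other Tgfb1 probe set, 1445360_at, stayed below the array median on all arrays (3.20 to 4.15).

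Some lists of cell type markers were higher in tsA58 tissue than in C57BL/6J tissue, and others were not. Over all genes, 9.79% were called higher and 3.37% lower in this comparison, with a median difference of 0.18. The 4 endothelial markers averaged 5.35 and 5.62 in C57BL/6J tissue and 7.08, 6.62 and 5.86 in tsA58 tissue, with 1 of 4 called higher. The 4 macrophage markers averaged 8.16 and 8.25 against 8.70, 9.86 and 9.20, with 2 of 4 called higher. The smooth muscle markers averaged 11.74 and 11.89 against 13.11, 12.91 and 13.25, with 2 of 5 called higher. Of the 2 enteric glia markers, 1 was called higher. No gene was called in the ICC, enteric neuron, gastric epithelial, pancreas, fibroblast, mesothelial and proliferation lists. The proliferation markers ran lower in tsA58 tissue, at 9.56 and 9.53 against 9.03, 6.23 and 4.23. The part of any cell type in the Tgfb1 and Bmp4 differences was not tested. The 3' to 5' actin ratio also separated the tissues, at 1.02 and 0.84 in C57BL/6J and at 0.47, 0.43 and 0.41 in tsA58, and as a covariate it ended the Bmp4 call but not the Tgfb1 call.

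Bmp2 and Bmp5 were lower in both lines than in the tissues. Bmp2, a BMP bound by gremlin 1 that muscularis macrophages are known to supply to enteric neurons, was at 5.52, 5.67 and 6.18 in the C57BL/6J line while C57BL/6J tissue was at 8.80 and 8.81. The tsA58 line was at 3.35, 3.03 and 3.07, below the array median, and tsA58 tissue at 6.43, 6.72 and 6.07. The C57BL/6J line overlapped tsA58 tissue, and the other groups stood apart. Line against tissue gave -3.01 ± 0.25 in C57BL/6J (adjusted p = 7.60e-06) and -3.25 ± 0.23 in tsA58 (adjusted p = 1.34e-06). The tsA58 line differed from the C57BL/6J line by -2.64 ± 0.23 (adjusted p = 3.27e-05), and tsA58 tissue from C57BL/6J tissue by -2.40 ± 0.25 (adjusted p = 0.00023). The difference of differences was -0.24 ± 0.34 (adjusted p = 0.65). With arrays centred on the hybridisation controls the strain differences shrank to -1.06 between lines (adjusted p = 0.11) and -0.18 between tissues (adjusted p = 0.80). The macrophage markers averaged 8.16 to 9.86 in the tissues and 3.89 to 4.88 in the lines. Between the tissues 2 of the 4 were called higher in tsA58 and 0 lower (9.79% and 3.37% of all genes). The part of macrophages in the Bmp2 level was not tested.

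Bmp5, a BMP of the BMP5/6/7 subgroup, was at 5.16 and 6.19 in C57BL/6J tissue and at 4.63, 5.28 and 4.05 in tsA58 tissue. Both lines were below the array median, at 3.58, 3.64 and 3.68 in C57BL/6J and at 3.56, 3.49 and 3.49 in tsA58. Only 3 of the 11 arrays, all of tissue, were above the median. The line-tissue differences of -2.04 ± 0.35 in C57BL/6J (adjusted p = 0.00085) and -1.14 ± 0.32 in tsA58 (adjusted p = 0.013) therefore end in background. Under hybridisation control centring they were -0.77 and -0.51, neither called, and without tsA58 tissue replicate 2 the tsA58 value was -0.82. Between the tissues it was -1.02 ± 0.35 (adjusted p = 0.059), which was called without tsA58 tissue replicate 2 (-1.34) or without C57BL/6J tissue replicate 1 (-1.54). Within tsA58 tissue, replicate 2 was highest in Bmp5, in the gastric epithelial markers (13.21, against 10.90 and 11.13) and in the pancreas markers (9.41, against 4.70 and 5.01). It was also highest in the macrophage (9.86, against 8.70 and 9.20) and fibroblast markers (11.82, against 11.57 and 11.33), and in no other marker list. Within C57BL/6J tissue, replicate 2 was higher in Bmp5 but lower in the gastric epithelial and pancreas markers (11.18 against 11.44, and 5.51 against 11.19). It was slightly higher in the macrophage and fibroblast markers (8.25 against 8.16, and 11.10 against 11.07). The part of these cells in the Bmp5 level was not tested. Its other probe sets, 1421282_at and 1421283_at, stayed below the median on every array (3.15 to 3.62 and 3.19 to 4.13).

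Tgfb2, the isoform with wide roles in mesenchymal development, had 4 probe sets above the filter. On the strongest, 1450923_at, the C57BL/6J line was at 7.23, 6.82 and 6.95 and its tissue at 8.22 and 8.04. The tsA58 line was at 6.12, 5.29 and 6.82 and its tissue at 7.68, 7.46 and 6.92. Line and tissue did not overlap in either strain, although tsA58 line replicate 3 lay just below the lowest tissue array. The differences were -1.13 ± 0.38 in C57BL/6J (adjusted p = 0.033) and -1.28 ± 0.34 in tsA58 (adjusted p = 0.011). The first call ended without C57BL/6J line replicate 2 (-1.04) or 3 (-1.10), without C57BL/6J tissue replicate 1 (-1.04) or 2 (-1.22), with the actin ratio as a covariate (-0.98) and, with its sign turned, under hybridisation control centring (0.14). The second ended without tsA58 line replicate 2 (-0.88) and under hybridisation control centring (-0.65).

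The Tgfb2 probe sets differed from each other. In C57BL/6J, 1423250_a_at gave -1.66 (called), 1438303_at gave -0.28 and 1450922_a_at gave 0.21 (neither called), so the lower level in that line rests on 2 of 4 probe sets. In tsA58 all 4 were negative (-1.28, -1.25, -0.77 and -1.24), and 3 were called. Between the lines 1450923_at gave -0.92 ± 0.34 (adjusted p = 0.077) and was called without tsA58 line replicate 3 (-1.30) and with the actin covariate (-1.84, adjusted p = 0.0062). Between the tissues it gave -0.78 ± 0.38 (adjusted p = 0.17), was called lower with the actin covariate (-1.60, adjusted p = 0.020) and called higher under hybridisation control centring (1.44, adjusted p = 0.048).

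**Figure D2:**
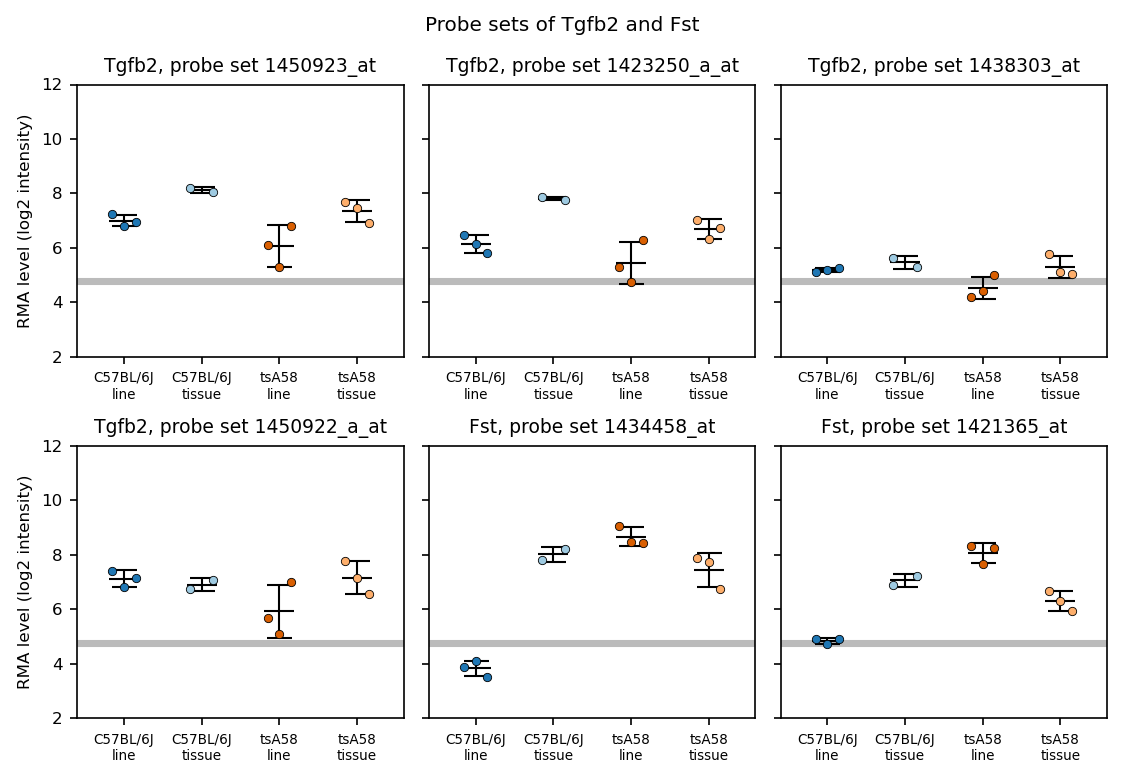
Levels of the 4 Tgfb2 and 2 Fst probe sets above the filter on every array, as log2 intensity after RMA, with mean and SD bars and the array medians as a grey band. Both Fst probe sets show the C57BL/6J line lowest and the tsA58 line highest, while the Tgfb2 probe set 1450922_a_at has the C57BL/6J line (6.81 to 7.43) at the level of its tissue (6.73 and 7.09).

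Tgfb3, the third TGF-beta isoform, was not called in any of the 5 comparisons. It was at 8.04, 7.43 and 8.49 in the C57BL/6J line, 7.65 and 7.62 in its tissue, 7.31, 6.41 and 8.64 in the tsA58 line and 8.85, 8.74 and 8.29 in tsA58 tissue. Neighbouring groups overlapped throughout, and the tsA58 line had the widest spread of any gene here (SD 1.12). Within that line replicate 3 was highest in Tgfb3, Tgfb2, Tgfb1, Bmp4 and Grem1, but not in Bmp2, Bmp5, Inhba or Fst. It was lowest in the 3' to 5' actin ratio. It also stood apart in the mesothelial markers (10.29, against 7.95 and 7.44 on replicates 1 and 2), the fibroblast markers (6.79, against 5.51 and 5.86) and the proliferation markers (8.94, against 10.75 and 10.66). Replicate 3 was highest too in the smooth muscle, ICC, enteric neuron, macrophage, endothelial and gastric epithelial lists. The same held for enteric glia (5.32, against 4.39 and 4.64), while replicate 3 was lowest in the pancreas list. Without it the tsA58 line was called lower than its tissue (-1.77, adjusted p = 0.0020) and than the C57BL/6J line (-1.13, adjusted p = 0.030), and the difference of differences was called (-2.12, adjusted p = 0.0083). With all arrays these were -1.18 ± 0.47 (adjusted p = 0.062), -0.54 ± 0.47 (adjusted p = 0.46) and -1.53 ± 0.71 (adjusted p = 0.14). Adding the actin ratio as a covariate also called all 3 (-1.09, -1.92 and -1.67), and with the replicate number as a block the first was (adjusted p = 0.048). The part of other cell types or of proliferation in the levels of this array was not tested.

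**Figure D3:**
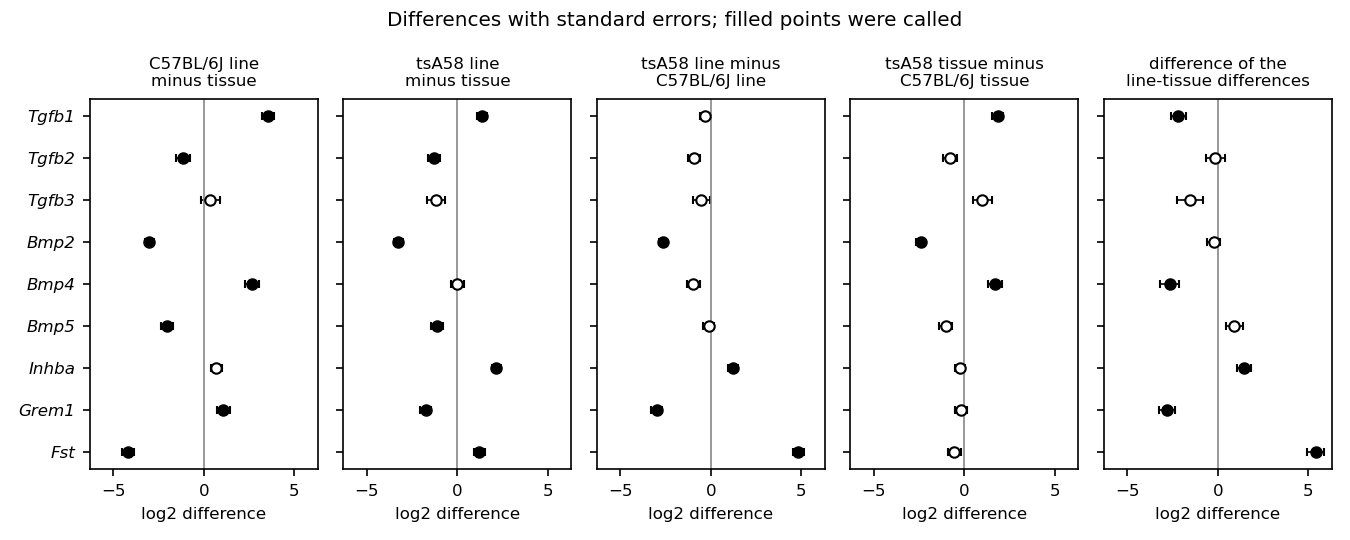
Log2 difference of each gene in the 5 comparisons, with its standard error. Filled points had an adjusted p below 0.05 and at least a 2-fold change. Fst and Grem1 lie on opposite sides of 0 in the first 3 panels, and Tgfb3 is open throughout.

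By group, the C57BL/6J line had the highest mean of Tgfb1, Bmp4 and Grem1, the tsA58 line the highest of Inhba and Fst, C57BL/6J tissue the highest of Tgfb2, Bmp2 and Bmp5, and tsA58 tissue the highest of Tgfb3. The top group overlapped the next one for Tgfb1, Tgfb3 and Bmp5. The arrays of the lowest group did not overlap those of its neighbour, except for Tgfb3 and Inhba. For Tgfb2 they nearly touched (tsA58 line up to 6.817, C57BL/6J line from 6.818), and for Bmp5 both lowest groups were in background. The share of all genes with such gaps was not computed, so these are descriptions of single genes. Over the 9 genes the median difference was 0.35 for the C57BL/6J line against tissue (0.12 over all genes tested) and -1.14 for the tsA58 line against tissue (-0.000130 over all genes).

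Of 24 other ligands of the superfamily, 18 had a single-symbol probe set and 13 were tested. Against tissue, 1 rose and 1 fell in the C57BL/6J line, both below the shares of all genes called (17.5% higher, 16.6% lower). Counts for this list and those that follow are to be read against these shares and, for the tsA58 line against tissue, against 12.8% higher and 18.9% lower. Between the lines the shares of all genes were 8.42% higher and 5.82% lower. They were 9.79% and 3.37% between the tissues, and 7.54% and 13.2% for the difference of differences. In the C57BL/6J line Lefty1, a nodal antagonist of the family, was the gene that rose (1.67 ± 0.27). Gdf10 was the gene that fell (-2.53 ± 0.37). The count of higher genes there was 2 without C57BL/6J line replicate 1 or 2 or C57BL/6J tissue replicate 1 or 2. It was also 2 under quantile normalisation and with the actin covariate, and 6 with 0 lower under hybridisation control centring. In the tsA58 line against tissue 2 fell and 0 rose, Gdf10 (-3.12 ± 0.34) and Bmp6 (-2.61 ± 0.31). Between the lines Lefty1 (-2.38 ± 0.24) and Bmp6 (-1.93 ± 0.31) were lower in the tsA58 line, and Lefty1 ended below the array median there (4.05). None was called between the tissues.

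Of 15 other extracellular antagonists 10 were tested. Bmper, a BMP-binding endothelial regulator, was higher in both lines than in their tissues (3.31 ± 0.33 in C57BL/6J, 2.98 ± 0.29 in tsA58). It was the 1 list member that rose in each. Chrdl1, a chordin-like BMP antagonist, was lower in both (-4.22 ± 0.21 and -4.97 ± 0.19), as was Sostdc1 (-1.88 ± 0.22 and -1.91 ± 0.19). The third of 3 that fell in the C57BL/6J line was Crim1, a transmembrane BMP-binding protein (-2.32 ± 0.40, against 0.76 ± 0.36 in tsA58, not called). The other two of 4 that fell in the tsA58 line were Nbl1 (-3.38 ± 0.26) and the follistatin-like activin binder Fstl3 (-2.70 ± 0.21). Fstl3, unlike Fst, was lower in the tsA58 line than in the C57BL/6J line (-2.09 ± 0.21, adjusted p = 0.0001). Chrd, the chordin gene, was called only between the tissues (1.06 ± 0.30), and Nog did not pass the filter.

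Genes of TGF-beta latency and activation went up in 4 cases and down in 1 of the 10 measured when the C57BL/6J line was set against tissue (median 1.23). Thbs1, a matrix protein that can free latent TGF-beta, rose by 3.33 ± 0.69, Ltbp2 by 2.34 ± 0.26, the integrin subunit Itgav by 1.37 ± 0.20 and the latent TGF-beta binding protein Ltbp3 by 1.36 ± 0.18. Ltbp4 was the member that fell (-1.54 ± 0.38), and 0 fell without C57BL/6J tissue replicate 1, 2 without tsA58 line replicate 1 and 3 without tsA58 line replicate 3. In the tsA58 line against tissue 1 rose, Thbs1 (2.23 ± 0.62; 0 without tsA58 tissue replicate 3), and 3 fell: the TGF-beta-binding proteoglycan decorin (Dcn, -3.35 ± 0.83), Ltbp4 (-2.60 ± 0.34) and Ltbp2 (-1.22 ± 0.24). Ltbp2 and Ltbp3 were lower in the tsA58 line than in the C57BL/6J line (-4.12 ± 0.24 and -2.25 ± 0.16), and Ltbp1 was higher (1.33 ± 0.39). That single higher call became 0 without C57BL/6J line replicate 1 or 3 or tsA58 line replicate 1 or 2, and 2 without tsA58 tissue replicate 1 or 3. Ltbp2 and Ltbp3 were also lower in the difference of differences (-3.55 ± 0.35 and -1.99 ± 0.24).

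Of 16 receptors and co-receptors 15 were tested. In the tsA58 line 8 fell against tissue and 0 rose (median -1.33, and 2 of 15 fell with hybridisation control centring, median -0.70). Those furthest down were the BMP co-receptors Rgmb (-4.20 ± 0.31) and Rgma (-2.41 ± 0.29), the type I receptor Bmpr1b (-2.06 ± 0.24) and the endothelial receptor Acvrl1 (-1.85 ± 0.21). The 4 endothelial markers fell too in that comparison, from 5.86 to 7.08 in tissue to 3.74 to 4.06 in the line. In the C57BL/6J line 2 rose and 2 fell. Tgfbr3, the betaglycan co-receptor, rose by 2.22 ± 0.71 and the type I receptor Acvr1 by 1.05 ± 0.25, while Rgmb (-2.63 ± 0.35) and the decoy receptor Bambi (-2.10 ± 0.35) fell. These counts were not stable: 0 rose and 4 fell under cyclic loess, 1 rose and 3 fell under quantile normalisation, and the list's median of 0.02 turned to -0.20 and -0.06. None rose without C57BL/6J line replicate 3 or C57BL/6J tissue replicate 1, and 1 rose without C57BL/6J line replicate 1 or 2. Bmpr1b (-3.37 ± 0.24) and Tgfbr3 (-2.48 ± 0.63) were lower in the tsA58 line than in the C57BL/6J line (1 call in place of 2 without C57BL/6J line replicate 1 or tsA58 line replicate 1 or 2). Of the difference of differences, 6 of 15 were called, all lower in tsA58, where 13.2% of all genes were called lower. The count was 2 with hybridisation control centring, and 2 without C57BL/6J tissue replicate 1. The type II receptors Tgfbr2 and Bmpr2, named after their values were seen, were not called in any comparison.

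Of 13 SMADs and intracellular regulators 12 were tested, and 6 rose in the C57BL/6J line against tissue with 0 falling (median 0.91; 4 rose and 1 fell under cyclic loess, and 4 to 6 rose when single arrays were left out). The repressor Tgif1 rose by 2.12 ± 0.45, Smad3 by 1.66 ± 0.28, and the ubiquitin ligases Smurf2 and Smurf1 by 1.63 ± 0.19 and 1.53 ± 0.24. Tgif1 rose in the tsA58 line too (1.48 ± 0.41), and Ski fell there (-1.12 ± 0.25), where 3 rose without tsA58 line replicate 2 or tsA58 tissue replicate 1, 2 rose without tsA58 tissue replicate 2, and 0 fell without tsA58 tissue replicate 1. Between the lines Smad3 (-1.02 ± 0.25) and the inhibitory Smad6 (-1.26 ± 0.35) were lower in the tsA58 line. These 2 calls became 0 without C57BL/6J line replicate 3, without tsA58 line replicate 2 or with the groups of the comparison fitted alone, and 1 without replicate 1 of either line.

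Genes known to respond to these ligands did not move as 1 group. Of 9 BMP targets tested 2 rose and 2 fell in the C57BL/6J line (0 rose under cyclic loess or without C57BL/6J tissue replicate 2, and 1 without replicate 1). In the tsA58 line 1 rose and 4 fell, and 2 rose without replicate 1 or 2 of the tsA58 line or of tsA58 tissue. Id2 fell in both (-4.32 ± 0.20 and -5.18 ± 0.18), as did Id4 (-3.56 ± 0.42 and -2.63 ± 0.37), while Id1, named after its values were seen, was not called in either (-0.27 ± 0.29 and -0.19 ± 0.26). Smad6 (1.35 ± 0.39) and Smad7 (1.05 ± 0.28) were the members that rose in the C57BL/6J line. Msx1 rose in the tsA58 line (1.27 ± 0.20). Of 10 TGF-beta targets tested 5 rose and 2 fell in the C57BL/6J line, and 3 rose and 2 fell in the tsA58 line. In the former 1 fell without C57BL/6J line replicate 1 or 2 or either C57BL/6J tissue array. In the latter 5 rose without tsA58 line replicate 2, and 1 fell without tsA58 tissue replicate 1. Cdkn2b, a CDK inhibitor, rose in both (3.20 ± 0.59 and 3.73 ± 0.52), as did the transcription factor Bhlhe40 (3.20 ± 0.35 and 1.37 ± 0.31). The matrix protein Tgfbi, named for its induction by TGF-beta, fell in both (-7.32 ± 0.19 and -6.26 ± 0.17). Whether any of these genes followed the ligands was not tested. Smad6, Smad7, Skil, Tgif1 and Ltbp2 stand in more than 1 list. Between the lines the medians of all 7 lists, all below 0, turned positive under hybridisation control centring (1.17 to 1.36).

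**Figure D4:**
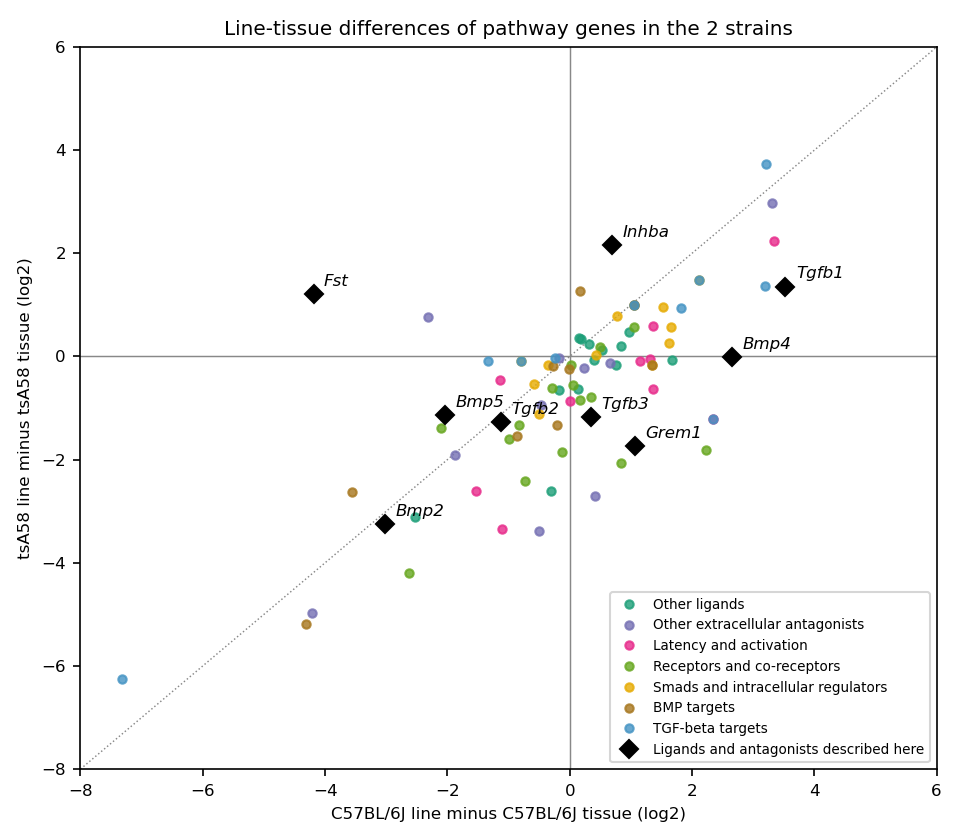
Log2 difference between line and tissue in C57BL/6J (horizontal) and tsA58 (vertical) for the 9 genes (diamonds) and the tested genes of the 7 pathway lists (circles, coloured by list). The dotted line marks equal differences. Fst lies at -4.19 and 1.21 and Grem1 at 1.07 and -1.74, on opposite sides of 0 in the 2 strains.

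The genes whose profile over the 11 arrays was most like each member were found among 12766 other named genes, by Pearson correlation. The arrays share 4 groups, so the values mostly follow group means and are a description. Bmp5 was nearest to F5, Pof1b and Dsc2 (0.990, 0.986 and 0.984), and Inhba to Mmp8, Odc1 and N4bp1 (0.986, 0.973 and 0.969). Tgfb1 was nearest to Tnks1bp1, Synj2 and Ehmt2 (all 0.979), and Bmp2 to Tspan6, Lgr4 and Anapc10 (0.973, 0.971 and 0.960). For Fst they were Shtn1, Commd3 and Samd9l (0.960, 0.955 and 0.951), for Grem1 Emb, Pttg1ip and Abca3 (0.953, 0.944 and 0.944), and for Bmp4 Mxra8, Gadd45b and Lrp1 (0.959, 0.956 and 0.956). Tgfb2 was nearest to Sctr, Clec4n and Gpx7 (0.960, 0.923 and 0.920) and Tgfb3 to Spsb1, Emp3 and Sorbs3 (0.944, 0.942 and 0.931). Among the 9 genes themselves the highest correlation was between Tgfb2 and Bmp2 (0.883), and the lowest was between Tgfb1 and Bmp5 (-0.864). Fst and Grem1 were at -0.793.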

How the data were processed

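RNA from about 50 ng of total RNA was amplified in 2 rounds (oligo(dT), then random primers) and hybridised to Affymetrix mouse genome arrays, per the labels' protocols. Each deposited value is the log2 intensity of 1 probe set, for which the submitters' processing notes name RMA; its version and background settings are not given in the sources used here. Amplification from the 3' end can favour 3' probe sets, and RMA compresses differences near background. Of 45101 probe sets, 34945 had 1 gene symbol, 932 several and 9160 none in the platform annotation, and 64 were controls. Probe sets above their array's median on at least 2 arrays (26903) were fitted with limma 3.58.1 in R 4.3.3 as 4 group means over all 11 arrays (7 residual and 3.71 prior degrees of freedom), with Benjamini-Hochberg adjustment over all of them. The number of arrays limits the precision. The script was tested on simulated data, with 100 of 26903 probe sets changed at each size in the C57BL/6J line. No other group differences were simulated. Of changes of 1.5 log2 units it called 62% against tissue, 73% between the lines and 30% for the difference of differences. Of changes of 3 log2 units it called 91%, 91% and 82%. False calls numbered 12, 6 and 5. In the real data far more probe sets were called in these comparisons (34.1%, 14.2% and 22.3%), and the adjusted p depends on that share. The simulated shares thus check the script and do not measure the power of the real tests. A gene that was not called may still differ. The 9 genes and the pathway and marker lists were chosen with earlier results of these data known. Named beyond the 9 were up to 4 called genes per list and comparison with the largest changes, and the 3 genes most correlated with each. Alternatives were quantile, cyclic loess and hybridisation control scaling, other filters, fits of each comparison's groups alone, a robust fit, the 3' to 5' actin ratio as a covariate, a replicate block, single arrays left out and, added after seeing the data, the other probe sets of Tgfb2 and Fst.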

Additional observations from a re-analysis of the deposited data

Results flagged for a closer look

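For 5 of the 9 genes the difference between line and tissue differed between the strains by the interaction test in limma (tsA58 minus C57BL/6J, log2). The values were 5.39 ± 0.47 for Fst, -2.81 ± 0.47 for Grem1, -2.67 ± 0.52 for Bmp4, -2.18 ± 0.43 for Tgfb1 and 1.46 ± 0.39 for Inhba, with adjusted p = 0.00011, 0.0023, 0.0051, 0.0051 and 0.021. For Bmp4 and Tgfb1 the tissues differed and the lines were not called, for Inhba the lines differed and the tissues were not called, and the same was so for Fst and Grem1. Some of these calls were not stable. The Bmp4 call between the tissues ended without C57BL/6J tissue replicate 1 or 2, and with the actin covariate. Bmp4 was called between the lines without tsA58 line replicate 3 or with that covariate. The Inhba call between the lines ended without C57BL/6J line replicate 3 or tsA58 line replicate 1, and with that covariate. With hybridisation control centring Inhba, Fst and Grem1 were called higher in tsA58 tissue. Groups of 2 or 3 arrays are too small for a test of single outlying arrays.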

How the results depend on the processing

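Of 26 called differences of the 9 genes, 13 kept direction and call under every alternative run, 13 lost the call under at least 1, and 1 of these (Tgfb2 in the C57BL/6J line against tissue) also turned. Centring on hybridisation controls gave 2 genes lower instead of 4 in the C57BL/6J line against tissue, 1 lower in the tsA58 line against tissue, 1 lower between the lines, 7 higher and 0 lower between the tissues, and 1 higher for the difference of differences. It turned Tgfb2 in the C57BL/6J line against tissue (0.14), Bmp4 in the tsA58 line against tissue (0.62), Tgfb1, Tgfb2, Tgfb3, Bmp4 and Bmp5 between the lines (1.25, 0.66, 1.05, 0.62 and 1.46) and Tgfb2, Bmp5, Inhba, Grem1 and Fst between the tissues (1.44, 1.20, 1.98, 2.04 and 1.66). The actin ratio as a covariate gave 1 higher and 5 lower between the lines and 1 higher and 2 lower between the tissues, and turned Tgfb3 between the tissues (-0.25) and Bmp4 in the tsA58 line against tissue (0.050). That Bmp4 value, near 0, also turned under quantile normalisation (0.038) and ranged from -0.29 to 0.43 with single arrays left out. The Tgfb2 difference of differences turned under quantile (0.038) and loess (0.0076) normalisation, with single arrays left out (-0.52 to 0.24) and on probe set 1423250_a_at (0.41). Probe set 1450922_a_at turned Tgfb2 in the C57BL/6J line against tissue (0.21) and between the tissues (0.26). The cause was not tested.

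With single arrays left out, 2 to 3 genes were higher and 3 to 4 lower in the C57BL/6J line against tissue, 2 to 3 and 3 to 5 in the tsA58 line against tissue, 1 to 2 and 2 to 5 between the lines, 1 to 2 and 1 to 2 between the tissues, and 1 to 2 and 3 to 4 for the difference of differences. Replicate numbers did not pair the arrays (correlations of deviations -0.157 to 0.220). The replicate block added 1 call, Tgfb3 in the tsA58 line against tissue (-1.18, adjusted p = 0.048), making 5 lower instead of 4, and kept 3 higher there. The stricter filter left no value for Bmp5. Levels near the array median, as for Bmp5, limit what these arrays can show.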
